A study of Mus musculus with 4 samples.

Results

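Corticosterone signals in the hippocampus through 2 nuclear receptors, and the 10 genes described here are those receptors, a set of well-known glucocorticoid targets, and members of the hormone's supply and of the corticotropin-releasing hormone (CRH) system. They were chosen by name from the 28193 genes of the deposited table to look for a stress component beside the response to sleep loss. The receptors are Nr3c1 (the glucocorticoid receptor) and Nr3c2 (the mineralocorticoid receptor), the targets are Fkbp5, Sgk1, Tsc22d3, Zbtb16 and Errfi1, and the others are Hsd11b1, Crhr1 and Crhbp. All 10 were in the table and all 10 passed the filter on low counts.

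fosTRAP-seq sequenced RNA bound to tagged ribosomes of CA1 neurons that had expressed c-Fos during an earlier sleep deprivation (SD). Male C57BL/6J mice, 3 to 5 months old, carried AAV8-c-Fos-ERT2-Cre-ERT2-PEST and AAV9-EF1a.DIO.HA-mRpl22 in dorsal CA1, so that a c-Fos promoter drove a tamoxifen-dependent Cre and Cre switched on the HA-tagged ribosomal protein Rpl22. Both groups were sleep deprived for 5 h from ZT 0 on day 0 with 4-hydroxytamoxifen at ZT 2, which tagged the active cells. On day 7 the SD mice were kept awake by gentle handling for 5 h again while the non-sleep-deprived (NSD) mice were left alone, and CA1 was taken from both at ZT 5. Every NSD mouse had therefore also been sleep deprived, tagged and given the drug 7 days before. Each library pooled the CA1 of 5 mice and each group has 2 libraries (10 mice), so an error given here is a spread between pools. The sample labels give the genotype as cFos-Cre:Ribotag and the tissue as dorsal hippocampus, which differs from the viral vectors and microdissected CA1 of the methods. Corticosterone in blood or tissue was not analysed here.

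Corticosterone enters cells freely and binds receptors that wait in the cytosol in a complex with Hsp90 and its co-chaperones. The bound receptor moves to the nucleus and binds the glucocorticoid response element, a pair of inverted 6-base arms that both receptors recognise, and switches on genes that include Fkbp5, Tsc22d3, Sgk1 and Per1. The mineralocorticoid receptor has the higher affinity for corticosterone and is abundant in hippocampal neurons, whereas the glucocorticoid receptor fills mainly at the daily peak and under stress. FKBP5 is itself a co-chaperone of the receptor complex and lowers its hormone affinity, which closes a negative feedback loop.

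Sequences that match the palindromic response element, the arms AGAACA and TGTTCT with 3 bases of any kind between them, are shown because they mark where the receptors could bind near the targets measured here. On GRCm39, both strands were searched over the bodies of 9 of the 10 genes, leaving out the chromosome of Nr3c1. Fkbp5 held 2 matches, both in introns, with centres 97199 and 75101 bases downstream of the gene's start, and Sgk1 held 1, in an intron of its longest form. The other 7 searched held none. In the lines that follow, the response element is in capitals and each run of 75 bases reads along its gene's strand.
Fkbp5, chr17:28639265-28639339, minus strand: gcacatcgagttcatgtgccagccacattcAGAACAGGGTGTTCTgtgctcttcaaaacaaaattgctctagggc
Fkbp5, chr17:28661363-28661437, minus strand: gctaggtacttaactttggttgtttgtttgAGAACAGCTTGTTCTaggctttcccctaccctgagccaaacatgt
Sgk1, chr10:21869570-21869644, plus strand: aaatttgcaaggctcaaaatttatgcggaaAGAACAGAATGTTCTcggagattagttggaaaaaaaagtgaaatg

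Of 16512 protein-coding gene bodies scanned, 1.51% held at least 1 such match and 0.0424% held 2 or more, and of genome stretches as long as Fkbp5 (118434 bases) 0.0508% held 2 or more. A looser form, the arms GNACA and TGTNC (N is any base) with 3 bases between them, which lies within every match of the stricter one, was searched in the 20000 bases centred on each gene's start. It occurred 5 times around Fkbp5, as GGACACTGTGTTC, GGACATTGTGTTC, GCACAGGGTGTCC, GGACAAAGTGTTC and GCACAGGATGTTC, and 1 time around Sgk1, and the other 7 genes held none. The looser form was thus in 2 of the 9 windows searched here (22.2%), against 28.6% of the windows of 16499 protein-coding genes. Of the latter, 0.0242% held 5 or more, a cut set by Fkbp5's own count.

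RefSeq promoters of 300 bases on GRCm38.p6, from 250 before to 50 after a start, were given for 8 of the 10 genes and counted 16 in all. Nr3c1 and Zbtb16 had no entry. The stricter motif was in 1 of the 16, at an Sgk1 start 189 bases downstream of it, and its letters are those of the Sgk1 line above. In all 32851 promoters the stricter motif occurred in 0.00913%. A single arm, TGTTCT, occurred in 4 of the 16, against 19% of all promoters. These were 3 of the 6 Sgk1 promoters, among them the one with the stricter motif, and 1 of the 3 Tsc22d3 promoters. Errfi1 held the cyclic AMP response element TGACGTCA in 1 of its 2 promoters, against 1.79% of all. The 250 bases before the outermost Tsc22d3 start are shown because Tsc22d3 is the member that passed the test of the 2 groups, with the arm in capitals, on the minus strand of chrX:140600523-140600772 (GRCm38.p6).
Tsc22d3, outermost start: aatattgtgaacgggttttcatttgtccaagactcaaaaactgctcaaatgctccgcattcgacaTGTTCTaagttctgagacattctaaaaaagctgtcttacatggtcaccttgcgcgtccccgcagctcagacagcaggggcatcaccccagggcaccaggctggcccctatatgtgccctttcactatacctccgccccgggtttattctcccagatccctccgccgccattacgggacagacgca

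The libraries held 153511705 to 195910235 estimated counts. Levels in CPM are counts adjusted for library size, with TMM factors of 0.965 to 1.02. Hsd11b1, the member with the fewest reads, had 590 to 627 counts. Markers of 7 cell types or regions were summed to see what the immunoprecipitate held. The summed level of 10 CA1 pyramidal markers was 6368 and 6692 CPM in NSD and 6131 and 6599 in SD. In the same order, 10 astrocyte markers gave 3731, 3241, 3840 and 3849 and 10 oligodendrocyte markers 1948, 1616, 1878 and 1785. Most of the CA1 sum was Camk2a (4285, 4338, 4090 and 4379 CPM) and most of the astrocyte sum Slc1a2 (2996, 2584, 3102 and 3147). Of the 10 CA1 markers, 4 had a log2 fold change above 0 and 6 below. Sums over different genes do not compare the amounts of cell types. Microglial markers gave 118, 95.3, 118 and 90.5 CPM, and markers of CA2, CA3 and the dentate gyrus 171, 164, 138 and 149. No marker stood at 0 in any library. RNA of glia was therefore present in all 4 libraries, and input RNA, which would show how far tagged neurons were enriched, was not analysed here. The 10 endothelial markers summed to 53.1 and 74.2 CPM in NSD and 43.3 and 28.9 in SD. Among all genes, 172 were called higher and 520 lower in SD, of which 148 and 84 were protein-coding. Genes with any count numbered 27444 and 27551 in NSD and 27122 and 26179 in SD.

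In SD, 1 of the 10 genes was called higher and 0 lower, by edgeR's quasi-likelihood test. A call took a Benjamini-Hochberg adjusted p below 0.05 together with a change of more than 1.2-fold. Of all 22338 genes tested, 0.77% were called higher and 2.33% lower. The gene was Tsc22d3. At an unadjusted p under 0.05, 5 members were higher and 1 was lower, against 6.86% and 12.2% of all genes and 8.86% and 5.76% of protein-coding genes. With the batch number as a replicate block, 2 members (Tsc22d3 and Fkbp5) were called higher, against 2.99% of all genes, and 0 lower, against 8.47%. DESeq2 called the same 2 higher, against 2.99% of all genes, and 0 lower, against 5.79%. On the adjusted p of the block alone, with no threshold on fold, Fkbp5, Tsc22d3 and Zbtb16 were higher and Nr3c2 lower, against 4.95% and 8.87% of all genes. All 10 are protein-coding, and among the 15551 genes of that class the shares called higher and lower were 0.952% and 0.54% without the block, 3.77% and 3.29% with it (6.52% and 3.86% on its adjusted p alone), and 3.91% and 1.79% by DESeq2. All 5 targets had both SD libraries above both NSD libraries, as had 22% of all genes and 26.5% of protein-coding genes, and Nr3c2, Hsd11b1, Crhr1 and Crhbp had both below, as had 27.5% and 20%. Nr3c1 alone overlapped. The median log2 fold change of the 10 was 0.12, against -0.02 over all genes and 0.02 over protein-coding genes. The 5 targets are also known from glia and vessel cells. Of the 10 astrocyte markers and the 10 microglial markers 0 were called with or without the block, of the 10 oligodendrocyte markers 1 was called higher and 1 lower with it, and of the 10 endothelial markers 7 were called lower with it. The part of these cells in the targets' levels was not tested.

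**Figure D1:**
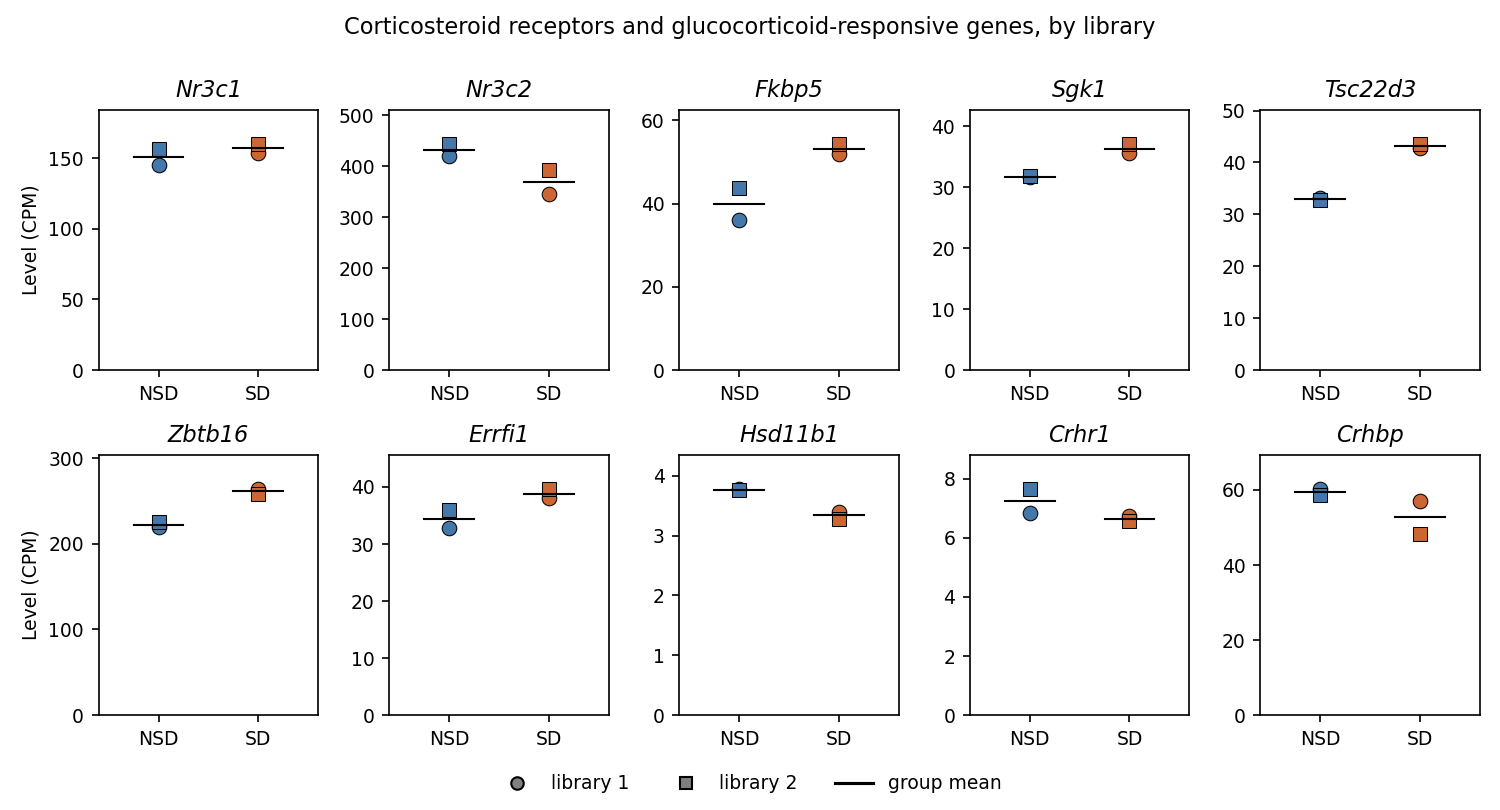
Level of each of the 10 genes in CPM (y axis, from 0) in the 2 NSD (blue) and 2 SD (orange) libraries, with circles for library 1, squares for library 2 and a bar at the group mean. The 5 targets sat higher in both SD libraries, Nr3c1 overlapped between groups, and Tsc22d3 went from 32.8 and 33.1 to 42.8 and 43.6 CPM.

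Tsc22d3 encodes GILZ, a leucine zipper protein that carries part of the anti-inflammatory action of glucocorticoids (ENSMUSG00000031431, chrX:139440277-139501408, GRCm39). It stood at 33.1 and 32.8 CPM in NSD and 42.8 and 43.6 in SD. Both SD libraries lay well above both NSD libraries, and within each group the pools differed by little. The mean rose from 33.0 ± 0.225 to 43.2 ± 0.609 CPM (SD over libraries, n = 2 per group), a log2 fold change of 0.39 (SE 0.067, 95% CI 0.24 to 0.54), or 1.31-fold, with an edgeR adjusted p of 0.0374. Within batch 1 the log2 difference was 0.37 and within batch 2 it was 0.41. The call was lost, at adjusted p of 0.0507 to 0.0628, with no count filter, with edgeR's filterByExpr and with protein-coding genes only, while the log2 fold change stayed between 0.37 and 0.42 in these.

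Fkbp5 (ENSMUSG00000024222, chr17:28618068-28736501), the gene of the co-chaperone and the carrier of 2 of the 3 intronic elements printed above, had the largest log2 fold change of the 10 with all 4 libraries. Without NSD 1 the log2 fold change was 0.31 for Fkbp5 and 0.43 for Tsc22d3. The Fkbp5 level was 36.1 and 43.7 CPM in NSD and 51.9 and 54.4 in SD. The groups did not overlap, but the NSD pools lay 0.28 apart on the log2 scale, a wider gap than for any other member. The mean went from 39.9 ± 5.38 to 53.2 ± 1.75 CPM, 1.33-fold, with a log2 fold change of 0.42 (SE 0.094, 95% CI 0.20 to 0.63) and an edgeR adjusted p of 0.0559, which missed the threshold. With the replicate block the adjusted p was 0.00104 and with DESeq2 0.00133, and both called it higher. Both library 2 values exceeded the library 1 values of their group, and the log2 difference was 0.53 within batch 1 and 0.32 within batch 2. Leaving out NSD 2, SD 1 or SD 2 also made the call (adjusted p 0.0125, 0.00264 and 0.0143), and leaving out NSD 1 did not (0.0873). The ratio of Fkbp5 to Fkbp4, a co-chaperone that competes with it for Hsp90 and favours hormone binding, was 0.670 and 0.708 in NSD and 0.803 and 0.786 in SD. An exact permutation test over the 6 splits of 4 libraries cannot go below p = 0.333, the value it gave.

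Zbtb16 encodes PLZF, a zinc finger repressor strongly induced by glucocorticoids in many cells (ENSMUSG00000066687, chr9:48565597-48747522). Its level was 219.8 and 224.9 CPM in NSD and 264.2 and 258.3 in SD, with no overlap and pools within 0.033 of each other on the log2 scale in NSD. The log2 fold change was 0.23 (SE 0.073, 95% CI 0.065 to 0.40), or 1.17-fold, with an adjusted p of 0.125. With the replicate block the adjusted p was 0.0292 and with DESeq2 0.00421, yet the fold stayed under 1.2, so it was not called in either. It is the most abundant of the 5 targets per kilobase of exon.

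Sgk1 encodes a kinase that regulates ion channels and transporters and is a target of both receptors (ENSMUSG00000019970, chr10:21758083-21875802). It stood at 31.6 and 31.9 CPM in NSD and 35.6 and 37.2 in SD. Both SD pools were above both NSD pools, with a log2 fold change of 0.20 (SE 0.070, 95% CI 0.037 to 0.36) and an adjusted p of 0.168. The response element printed above lies in an intron of its longest form, and the deposited counts do not separate its forms. Errfi1 encodes MIG6, an inhibitor of the epidermal growth factor receptor (ENSMUSG00000028967, chr4:150938376-150953349). Its level was 32.8 and 36.0 CPM in NSD and 38.0 and 39.7 in SD, again without overlap. The log2 fold change was 0.17 (SE 0.076, 95% CI 0.0011 to 0.35), with an adjusted p of 0.259. Neither gene was called with the block or by DESeq2.

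The receptors themselves showed no called change. Nr3c1 (ENSMUSG00000024431, chr18:39543598-39652474) stood at 145.3 and 156.6 CPM in NSD and 153.6 and 160.3 in SD, so that NSD 2 exceeded SD 1. The log2 fold change was 0.06 (SE 0.074, 95% CI -0.11 to 0.23), with an adjusted p of 0.765. The interval covers changes from 0.925-fold to 1.17-fold, and leaving out 1 library gave 0.03 (without NSD 1) to 0.11 (without NSD 2). Nr3c2 (ENSMUSG00000031618, chr8:77626070-77971641) was the most abundant of the 10 per kilobase, at 420.9 and 444.7 CPM in NSD and 346.6 and 393.4 in SD. Both SD libraries were below both NSD libraries, with a log2 fold change of -0.23 (SE 0.093, 95% CI -0.44 to -0.01), or 0.855-fold, and an adjusted p of 0.230. Leaving out 1 library gave -0.14 (without SD 1, adjusted p 0.755) to -0.30 (without SD 2). With the replicate block the adjusted p was 0.0433, but the change was under 1.2-fold, so it was not called. In pooled tissue, fewer cells of a type and less RNA per cell cannot be told apart. CA1 pyramidal markers moved in both directions beside it, with 1 of 10 called higher and 4 of 10 called lower with the block, and their part in the lower Nr3c2 level was not tested.

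The balance between the receptors was read as the ratio of their counts within a library. It was 2.90 and 2.84 in NSD and 2.26 and 2.45 in SD, lower in both SD libraries. Per kilobase of exon the ratio was 2.67 and 2.62 in NSD and 2.08 and 2.26 in SD. The difference of the groups' mean log2 ratios was -0.29, and the exact permutation test gave p = 0.333, the smallest that 2 libraries against 2 allow.

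**Figure D2:**
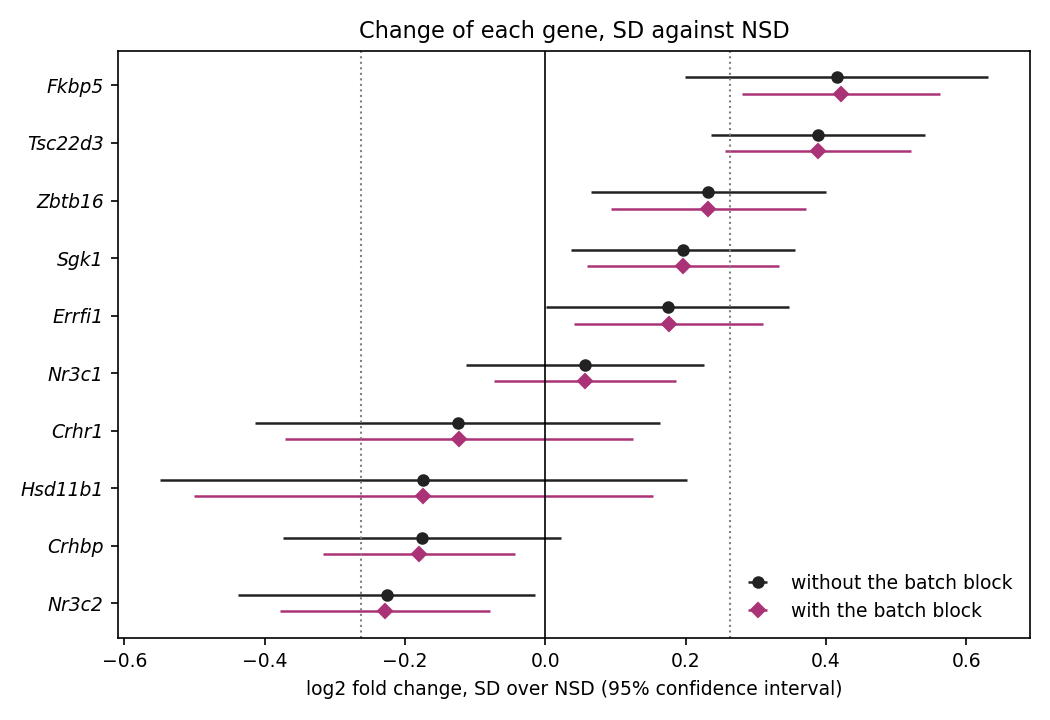
log2 fold change of SD over NSD (x axis) for each gene with its 95% confidence interval, from the edgeR fit without the batch block (black circles) and with it (purple diamonds); dotted lines mark a fold change of 1.2. Tsc22d3 and Fkbp5 were the genes whose estimate passed 1.2-fold, and the interval of Nr3c1 spans 0 in both fits.

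Hsd11b1, Crhr1 and Crhbp were lower in both SD libraries and none passed the test. Hsd11b1 encodes the enzyme that regenerates active corticosterone from its inactive form inside cells (ENSMUSG00000016194, chr1:192903942-192946383). It was the least abundant member, at 3.78 and 3.76 CPM in NSD and 3.40 and 3.28 in SD, with a log2 fold change of -0.17 (SE 0.16, 95% CI -0.55 to 0.20) and an adjusted p of 0.655. Crhr1 encodes the main brain receptor for CRH (ENSMUSG00000018634, chr11:104023681-104066349). It stood at 6.83 and 7.66 CPM in NSD and 6.73 and 6.55 in SD, and SD 1 lay close under NSD 1. Its log2 fold change was -0.13 (SE 0.13, 95% CI -0.41 to 0.16), with an adjusted p of 0.680, and it was -0.04 without NSD 2.

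Crhbp encodes a secreted protein that binds CRH and keeps it from its receptors, and in hippocampus it is known from interneurons (ENSMUSG00000021680, chr13:95567879-95581432). Its level was 60.3 and 58.7 CPM in NSD and 57.0 and 48.3 in SD, so the lower SD mean came mainly from SD 2. The log2 fold change was -0.18 (SE 0.087, 95% CI -0.37 to 0.02), with an adjusted p of 0.326, and it was not called with the block (0.0797). Leaving out SD 2 took the log2 fold change to -0.04 (adjusted p 0.961), and leaving out SD 1 to -0.30 (0.107). The 10 interneuron markers summed to 1270, 1248, 1223 and 1141 CPM in the order NSD 1, NSD 2, SD 1, SD 2, with 0 called without the block and 0 higher and 1 lower with it, and their part in the Crhbp level was not tested.

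**Figure D3:**
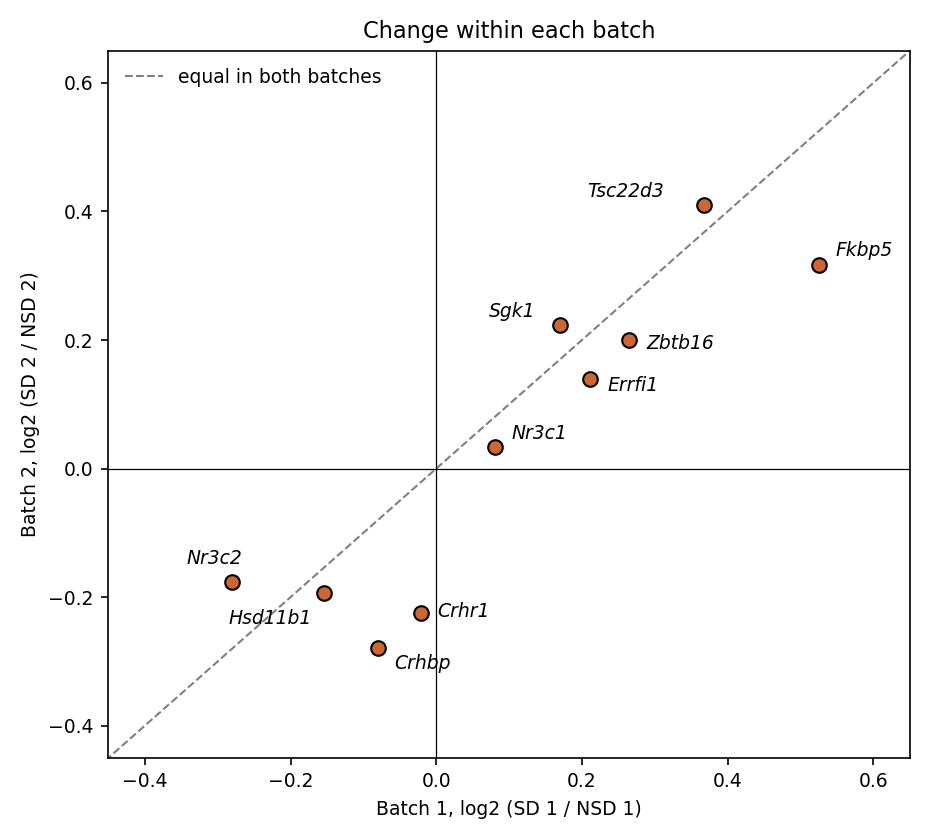
log2 ratio of SD to NSD within batch 1 (x axis, SD 1 over NSD 1) against batch 2 (y axis, SD 2 over NSD 2) for the 10 genes, with a dashed line where both are equal. Each gene had the same sign in both batches; Fkbp5 lies at 0.53 and 0.32, Tsc22d3 at 0.37 and 0.41, and Crhr1 near 0 in batch 1.

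Levels per kilobase of exon spread widely among the 10. In NSD, Nr3c2 had a mean of 50.6 ± 1.97 CPM per kilobase, followed by Crhbp (26.9 ± 0.517), Zbtb16 (23.7 ± 0.385) and Nr3c1 (19.2 ± 1.02). Errfi1 (5.82 ± 0.380), Tsc22d3 (5.32 ± 0.0363) and Sgk1 (5.28 ± 0.0255) were close to each other, and the lowest Tsc22d3 library and the highest Sgk1 library both stood at 5.30. Fkbp5 (3.60 ± 0.486), Crhr1 (1.87 ± 0.150) and Hsd11b1 (0.755 ± 0.00372) came last. In SD, Zbtb16 stood above Crhbp and Tsc22d3 above Errfi1. With the length of the canonical transcript in place of all exons, Nr3c2 stayed at the top and Crhr1 and Hsd11b1 at the bottom, but Zbtb16 already exceeded Crhbp in NSD and Errfi1 fell below Fkbp5, so the order in the middle depends on the length used.

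Of 34 other genes known to be induced by glucocorticoids, all of them tested, 0 were called by edgeR without the block, and at an unadjusted p under 0.05 there were 11 higher and 1 lower, against 8.86% and 5.76% of protein-coding genes. Their median log2 fold change was 0.12 and 26 had a value above 0, as had 47.2% of all genes and 54.2% of protein-coding genes. In 17 both SD libraries were above both NSD libraries and in 2 both were below, against 26.5% and 20% of protein-coding genes. With the replicate block 5 were called higher and 1 lower, against 3.77% and 3.29% of protein-coding genes. DESeq2 called 7 higher and 0 lower, against 3.91% and 1.79% of protein-coding genes. The 5 called higher with the block were Hif3a, Gjb6, Arl4d, Bcl6 and Dusp1 and the 1 lower was Cebpd, named after their values were seen. Hif3a, a hypoxia-inducible factor subunit, stood at 3.93 and 3.51 CPM in NSD and 4.90 and 5.81 in SD, a log2 fold change of 0.53 (SE 0.16, adjusted p 0.121, with the block 0.0308). Plin4, a lipid droplet protein and the other gene with the largest change by size, was at 3.41 and 2.38 in NSD and 2.15 and 5.96 in SD, so its log2 fold change of 0.48 rested on SD 2.

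Dusp1, a phosphatase that switches off MAP kinases, stood at 15.1 and 15.4 CPM in NSD and 18.2 and 19.8 in SD. Bcl6, a transcriptional repressor, was at 111.4 and 143.2 in NSD and 146.2 and 173.8 in SD. Per1, a clock gene with a response element in its promoter, was at 89.0 and 88.9 in NSD and 101.9 and 110.3 in SD, and its adjusted p was 0.0852 (0.00900 with the block, at under 1.2-fold). Klf9, a hippocampal glucocorticoid target, was at 233.7 and 251.4 in NSD and 240.1 and 244.6 in SD and overlapped. Per1 and Dusp1 are also known to respond to neuronal activity, and both inputs cannot be told apart here. Of 33 of these genes with a window of 20000 bases around the start, 20 held the looser form of the element (60.6%, against 28.6% of protein-coding genes). Angptl4 alone held the stricter one. Among the genes called higher with the block, Bcl6 held the looser form and Hif3a, Gjb6, Arl4d and Dusp1 did not.

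**Figure D4:**
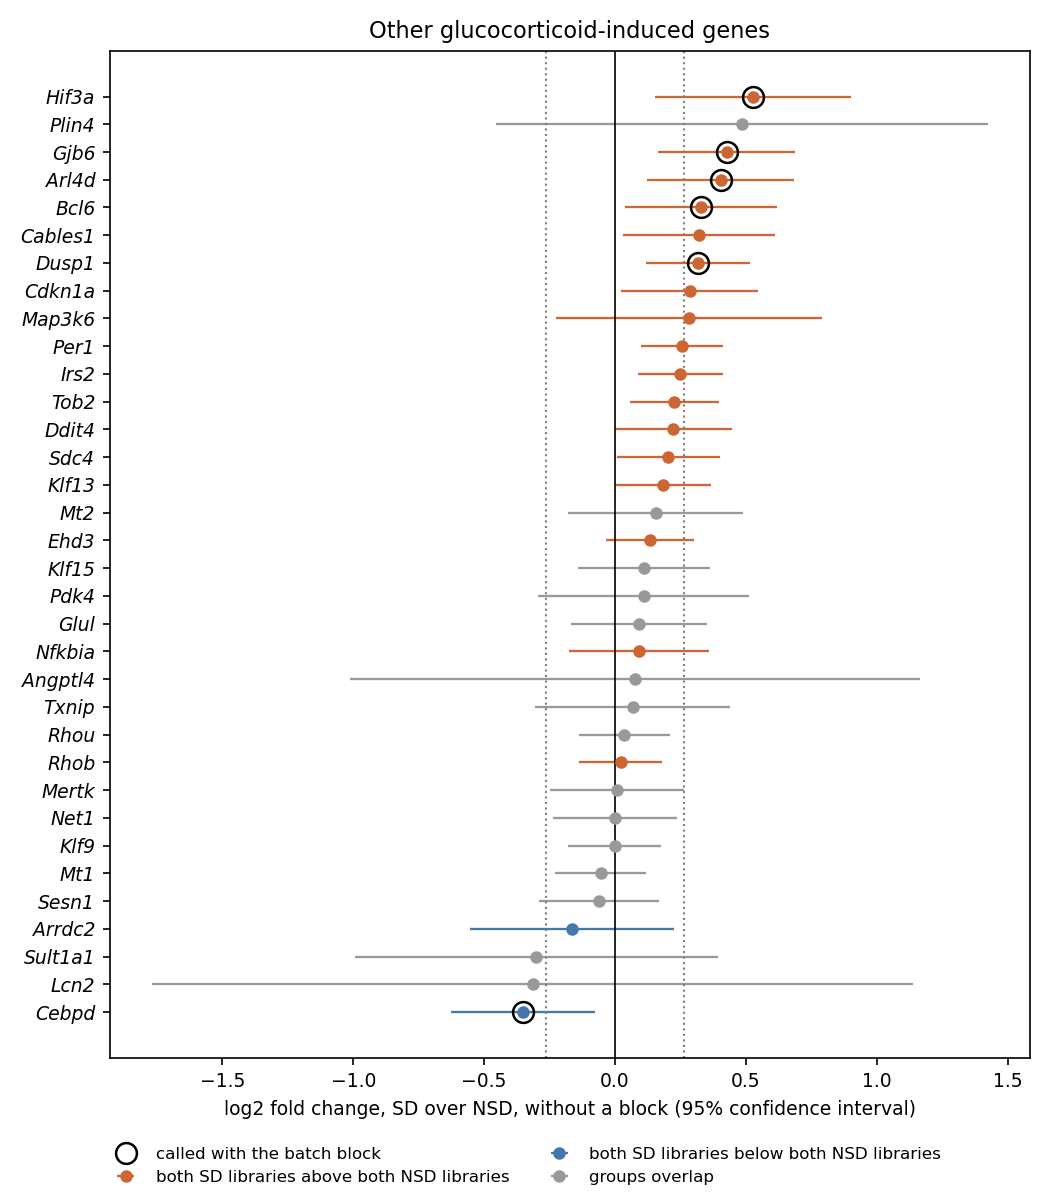
log2 fold change of SD over NSD (x axis, edgeR without a block, 95% confidence interval) for the 34 other glucocorticoid-induced genes, coloured by whether both SD libraries lay above (orange) or below (blue) both NSD libraries or overlapped (grey), with a ring where the fit with the batch block called the gene. Of the 34, 17 are orange and 2 blue, and Hif3a lies farthest right at 0.53.

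The other parts of the pathway held no call by edgeR without the block. Of 22 chaperones and coregulators of the receptors, 0 were called by edgeR with or without the block or by DESeq2. At an unadjusted p under 0.05, 3 were higher and 0 lower, against 8.86% and 5.76% of protein-coding genes. Those were Fkbp4, Hspa4 and Dnajb1. Dnajb1, an Hsp40 co-chaperone, stood at 31.3 and 35.3 CPM in NSD and 36.6 and 41.1 in SD, a log2 fold change of 0.22 (SE 0.090, adjusted p 0.221). Hspa4, a nucleotide exchange factor for Hsp70, was at 244.6 and 266.0 in NSD and 285.6 and 308.0 in SD, a log2 fold change of 0.22 (SE 0.084, adjusted p 0.203).

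Of 10 genes of steroid synthesis, transport and breakdown, 6 could be tested and 0 were called (1 was higher and 1 lower at an unadjusted p under 0.05). The block called H6pd higher and Abcb1a lower, against 3.77% and 3.29% of protein-coding genes, and DESeq2 called Abcb1a lower (adjusted p 0.0149), against 1.79%, and did not call H6pd (0.0548). H6pd, which supplies the cofactor that HSD11B1 uses, stood at 16.6 and 15.7 CPM in NSD and 19.97 and 18.98 in SD, a log2 fold change of 0.27 (block adjusted p 0.0317). Abcb1a, an efflux pump of the blood-brain barrier that carries corticosteroids, was at 5.78 and 8.46 in NSD and 4.81 and 2.43 in SD, a log2 fold change of -0.98 (block adjusted p 0.0165). All 10 endothelial markers had a log2 fold change below 0, with a median of -0.76, and 7 of them were called lower with the block. Their part in the Abcb1a level was not tested. Cyp11a1, the side-chain cleavage enzyme that starts steroid synthesis, was low at 0.893 and 0.649 CPM in NSD and 0.979 and 1.32 in SD.

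Of 11 other genes of the CRH and vasopressin systems, 5 could be tested, 0 were called in either direction, 0 had an unadjusted p under 0.05, and all 5 had a log2 fold change below 0, as had 52.8% of all genes and 45.8% of protein-coding genes. Crh itself was at 1.80 and 1.68 CPM in NSD and 1.52 and 1.497 in SD. Pomc, the precursor of ACTH, was at 0.344 and 0.280 in NSD and 0.166 and 0.132 in SD (log2 fold change -1.06, 95% CI -2.16 to 0.04, adjusted p 0.278). Crhr2 was at 0.724 and 1.04 in NSD and 0.681 and 0.635 in SD. Of 10 inflammatory genes that glucocorticoids repress, 9 could be tested, 0 were called and 0 had an unadjusted p under 0.05. All 9 overlapped between groups. Their median log2 fold change was -0.25 and 8 had a value below 0, as had 45.8% of protein-coding genes. Tnf and Il1a had the largest log2 fold changes of these, -0.87 (95% CI -2.35 to 0.60) and -0.61 (95% CI -1.63 to 0.41), at under 1 CPM in every library.

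Of 12 activity-induced genes measured in the same libraries, 2 were called higher and 0 lower, against 0.952% and 0.54% of protein-coding genes. With the replicate block 6 were called higher and 1 lower (Npas4, named after its values were seen), against 3.77% and 3.29%, and DESeq2 called 6 higher and 0 lower, against 3.91% and 1.79%. Arc, a cytoskeletal regulator at synapses, went from 198.8 and 232.9 to 386.3 and 426.3 CPM, a log2 fold change of 0.91 (SE 0.10, adjusted p 0.0328). Nr4a1, an orphan nuclear receptor, went from 90.6 and 105.1 to 127.6 and 130.1, a log2 fold change of 0.40 (SE 0.083, adjusted p 0.0472). Egr2, a zinc finger transcription factor, was at 3.46 and 4.65 in NSD and 8.84 and 3.76 in SD and overlapped, so its log2 fold change of 0.63 (adjusted p 0.379) rested on SD 1. The log2 fold change of Tsc22d3 (0.39) and its adjusted p were near those of Nr4a1, while that of Arc was larger. Fos, whose promoter drove the tagging, stood at 271.1 and 513.3 CPM in NSD and 336.0 and 375.1 in SD and overlapped, and Rpl22 stood at 628.5 and 1045, and at 610.2 and 809.5, with library 2 higher in each group.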

How the data were processed

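Ribosome-bound RNA from 4 libraries (2 NSD, 2 SD, 5 mice each) was made into stranded total RNA libraries. Reads were trimmed and mapped to mm39 (GRCm39) with STAR, and Partek Flow's expectation-maximization model assigned them to Ensembl release 110. The authors deposited the resulting estimated counts per gene, which are not normalized. Whether counting used strand is not given in the sources used here. Every overlap of the 10 genes' exons is with a noncoding gene on the opposite strand, and those that were tested had at most 0.747% of the member's level.

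The estimated counts were made whole by rounding. A gene was tested if all 4 libraries had over 5 counts, which left 22338 of 28193. The quasi-likelihood fit of edgeR 4.0.16 (R 4.3.3) used TMM factors and condition alone, and p was adjusted over every gene tested (Benjamini-Hochberg). Calls took an adjusted p below 0.05 together with a change of more than 1.2-fold. Standard errors and 95% intervals came from that fit, and single-library log2 values had a prior count of 2. The authors used DESeq2, here version 1.42.0 and an alternative, beside a replicate block, DESeq2's size factors, other filters and each library left out. The scripts were tested on simulated data.

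Replicate numbers equal the batch numbers of the labels, and every batch has 1 library of each group, so the numbers pair the libraries. Across genes, the departures of 2 libraries with one number from their groups' means correlated at 0.178.

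The 10 genes and the other lists were chosen with earlier results of these data known. The text names the 10 genes, Fos and Rpl22 as checks of the tagging, and from each other list of pathway or activity genes the calls without the block and the 2 genes with the largest change by size, with others marked as chosen later. Lists of cell type markers are given by counts and summed levels, with Camk2a and Slc1a2 named as the largest part of their sums. Klf9, Per1, Dusp1, Bcl6, Crh, H6pd, Angptl4 and Fkbp4 were also chosen after their values were seen. Exons came from GENCODE M39, response elements from the GRCm39 genome, and promoters from RefSeq.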

Additional observations from a re-analysis of the deposited data

How the results depend on the processing

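Over the 10 genes' log2 fold changes and their alternatives, 91 of 100 values kept their direction and side of the threshold, 6 (all Fkbp5) gained the call, 3 (all Tsc22d3) lost it and 0 changed sign. With the replicate block, which pairs the libraries by batch, edgeR called 668 genes higher and 1891 lower over the whole table, 2 members higher, and 5 other glucocorticoid-induced genes higher and 1 lower. It changed no other call among the 10. With the block and no fold threshold, an alternative chosen after seeing the data, 3 members were higher and 1 lower, and 8 of the other induced genes were higher and 1 lower. DESeq2 called 669 genes higher and 1294 lower, 2 members higher and 7 other induced genes higher. DESeq2's size factors in edgeR called 2 members higher. Without a count filter 50 genes were called higher and 80 lower, with filterByExpr 1 and 0, and with protein-coding genes only 51 and 39, and 0 members were called in each of the 3. With filterByExpr, 838 genes were higher and 2650 lower past the fold at an unadjusted p under 0.05 in edgeR. Leaving out 1 library gave 144 to 321 genes higher and 87 (without NSD 1) to 1953 (without SD 1) lower, 1 to 2 members higher, and 0 to 4 other induced genes higher. The cause of these differences was not tested. The group left with 1 library was then assumed to vary like the other.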
